A study of Mus musculus with 48 samples.

Results

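The livers of Ercc1 Δ/- mice fed rapamycin (Rapa 14 ppm, n = 4) were compared with the livers of Ercc1 Δ/- mice given 30% less food (DR 30%, n = 5), gene by gene over the whole array. These 9 mice were taken by their labels from the 24 mice of the series, and all 45141 probe sets of the array entered the comparison. A probe set is a group of short probes that reads 1 transcript. Both groups carried the same genotype, with 1 truncated (Δ) and 1 null allele of *Ercc1* in an F1 C57BL6J/FVB hybrid background, were kept on AIN93G pellets and were sampled at 11 weeks of age. Rapa 14 ppm mice ate the supplemented diet ad libitum. Its start is stated as 4 or 8 weeks of age, and which start applied to these 4 mice was not given in the sources used here. DR 30% mice were restricted from 7 weeks of age and received 1.6 g of food per day from 9 weeks on, given just before the dark period. The hour at which the livers were taken was not given in the sources used here. Also measured were Ercc1 Δ/- mice (Control, n = 5) and WT mice (WT-Control, n = 5) fed ad libitum, and WT mice under 30% restriction (WT-DR, n = 5), the WT mice being of the same F1 background. The comparison asks which liver transcripts separate a drug acting on mTOR from a reduction of food in mice that cannot repair DNA normally.

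ERCC1 is a subunit of the nuclease that cuts damaged DNA in nucleotide excision repair and in the repair of interstrand crosslinks, and mice with little of it age prematurely. Rapamycin binds FKBP12, the product of *Fkbp1a*, and the complex inhibits the kinase mTOR in mTOR complex 1, which couples nutrient supply to translation, ribosome production and autophagy. Dietary restriction lowers the nutrient supply itself and is known in rodents to shift hepatic clock, stress and sex-dependent gene programmes. Many mouse liver genes differ between the sexes because the pituitary releases growth hormone in pulses in males and more evenly in females, and the hepatic response to that pattern runs through STAT5B, BCL6 and CUX2.

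The values were RMA log2 values, so a difference of 1 is a doubling of the measured signal, and each value below is such a level unless it is called a difference. Differences are DR 30% minus Rapa 14 ppm, so a positive difference means higher in DR 30%. Array medians ran from 4.16 to 4.21 over the 24 arrays, and across probe sets 2 arrays of the same diet correlated at 0.992 to 0.996, against 0.986 to 0.994 for arrays of different diets. The first principal component of the 9 arrays held 36.3% of their variance and placed the 4 Rapa 14 ppm mice at -41.5 to -13.8 and the 5 DR 30% mice at 10.4 to 36.6. *Eif2s3y*, a gene of the Y chromosome, read 9.88 to 10.14 in the 9 mice, so their RNA was that of males. *Ercc1* itself lay at 5.12 ± 0.12 (SD, n = 4) in Rapa 14 ppm and 4.96 ± 0.21 (SD, n = 5) in DR 30%, below the 6.68 ± 0.11 (SD, n = 5) of WT-Control. Of 9 measured hepatocyte markers 0 were called, against 1.27% of all genes higher and 0.843% lower, and their median difference was 0.04. Among the markers of 9 other cell types 2 were called. At those shares so few calls do not set the markers apart from other genes. The neutrophil gene *S100a9* was higher (0.74), with a mean over 7 neutrophil markers of 4.07 to 4.19 in Rapa 14 ppm and 4.17 to 4.50 in DR 30%. The erythroid gene *Alas2* was lower (-1.04), with a mean over 3 erythroid markers of 6.99 to 8.17 and 6.66 to 7.45. Their part in the results was not tested, and in whole liver fewer cells of a type and less RNA per cell cannot be told apart. In the labels of the probe set values every group but Rapa 14 ppm is marked as re-analysed, while in those of the values per gene, another table of the same mice, Rapa 14 ppm is marked as re-analysed and the other groups as re-analysed again. The mean of the 62 spike-in probe sets, which read RNA added in the laboratory, was 6.31 ± 0.02 (SD, n = 4) in Rapa 14 ppm and 6.36 ± 0.02 (SD, n = 5) in DR 30% (difference 0.05, exact two-sided permutation p = 0.0317). A separate hybridization of the Rapa 14 ppm arrays cannot be told apart from the diet in any result below. The 3′ minus 5′ signal of *Gapdh* and of beta-actin, which follows RNA degradation, differed by -0.10 and -0.15 (exact two-sided permutation p = 0.619 and p = 0.429).

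A probe set was called a DEG at a Benjamini-Hochberg FDR under 0.05, given below as the adjusted p, and a fold change of at least 1.5. In all, 725 probe sets were DEGs (1.61% of those tested), 407 higher (0.902%) and 318 lower (0.704%) in DR 30%. A further view of the same fit is that 7987 probe sets (17.7%) had an unadjusted p under 0.05 and 2326 an FDR under 0.05. The DEGs had a median size of 0.76, 103 were at least 2-fold higher and 109 at least 2-fold lower, and 547 of them named 471 genes, of which 274 were higher, 197 lower and 0 both. With 1 probe set per gene, 216 of 17075 genes (1.27%) were higher and 144 (0.843%) lower, and the median difference over all genes was 0.00. In 609 of the 725 DEGs the 4 and the 5 mice did not overlap, against 8.45% of all probe sets. The counts leaned on 3 mice. The lower DEGs numbered 183 without Rapa 14 ppm mouse 535, 206 without mouse 537 and 202 without DR 30% mouse 362, while 319 DEGs were called whichever of the 9 mice was left out.

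The genes that fell furthest in DR 30% were male-biased. Of 19 measured genes of the male-biased list, 10 were lower and 0 higher, and the median difference was -0.81, against 0.843% of all genes lower. *Hsd3b5*, a male-specific hepatic steroid dehydrogenase, read 10.90, 10.48, 10.57 and 11.69 in Rapa 14 ppm mice 535, 536, 537 and 538, and 4.47, 7.03, 6.59, 9.61 and 7.24 in DR 30% mice 362, 365, 366, 368 and 369. The groups did not overlap, which the choice of the largest decreases required. The difference was -3.92 ± 0.56 (SE, adjusted p = 2.5e-04). Mice stand in this order in each list of values below. *Cyp4a12a*, a fatty acid hydroxylase of the male liver, read 10.73, 9.73, 9.26 and 10.23 against 5.80, 6.45, 5.59, 8.43 and 6.42, a difference of -3.44 ± 0.40 (SE, adjusted p = 3.0e-05). *Elovl3*, an elongase of very long fatty acids, read 10.34, 8.74, 9.80 and 10.15 against 6.66, 5.99, 5.85, 7.79 and 6.22, a difference of -3.25 ± 0.38 (SE, adjusted p = 3.0e-05). In all 3 genes the highest DR 30% value came from mouse 368 and, as that choice required, lay below every Rapa 14 ppm value.

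The other male-biased genes that passed the test were *Serpina4-ps1*, a serpin pseudogene (-3.01), *Keg1* (-1.75), *Susd4*, a complement regulator (-1.34), *Cyp7b1*, the oxysterol 7α-hydroxylase (-1.23), *Slco1a1*, an uptake transporter for organic anions (-1.21), *Cyp2d9*, a steroid hydroxylase (-0.81), and *Nat8* (-0.71). *Slco1a1* was among the steadiest, at 12.42, 12.50, 12.38 and 12.66 against 10.56, 11.22, 11.41, 11.84 and 11.36. The 9 male-biased genes that were not called had differences between -1.12 and -0.16. *Bcl6*, the male-biased repressor, was the largest of these at -1.12 (95% CI -2.57 to 0.33), with single mice from 5.50 to 8.63 in Rapa 14 ppm and from 5.46 to 7.36 in DR 30%.

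Female-biased genes went the other way. Of 17 measured members 10 were higher and 0 lower, with a median difference of 1.10, against 1.27% of all genes higher. *Acot3*, a peroxisomal acyl-CoA thioesterase, read 6.35, 6.14, 5.72 and 5.83 in Rapa 14 ppm and 11.06, 9.06, 9.84, 8.49 and 9.35 in DR 30%, a difference of 3.55 ± 0.38 (SE, adjusted p = 1.0e-05). *Cux2*, the homeodomain factor of the female liver, stayed between 3.08 and 3.33 in Rapa 14 ppm and reached 7.16, 7.29, 6.95, 4.23 and 5.03 in DR 30%, a difference of 2.93 ± 0.43 (SE, adjusted p = 3.3e-04). *Sult3a1*, a sulfotransferase, stayed between 2.80 and 3.31 in Rapa 14 ppm and read 7.05, 6.05, 7.97, 3.92 and 7.23 in DR 30%, a difference of 3.30 ± 0.56 (SE, adjusted p = 0.00133). *Cyp2b9*, a cytochrome P450 of the female liver, rose by 3.33 ± 0.61 (SE, adjusted p = 0.00251). The DR 30% mice thus spread over more than 3 log2 units in *Cux2* and 4 in *Sult3a1*, with mouse 368 lowest in both. The Rapa 14 ppm values of both genes were near the lowest of the array, where the size of a difference is less certain.

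The smaller of the called female-biased differences were those of *Fmo2*, a flavin monooxygenase (1.89, and 2.12 on another probe set), *Trim24*, a transcriptional cofactor (1.57 ± 0.17, SE, adjusted p = 1.6e-05), *Cyp3a44* (1.11), *Slc16a5*, a monocarboxylate transporter (1.10), *Prom1*, which encodes CD133 (1.03), and *Cyp3a41a* (0.98). The Cyp2b and Cyp3a genes have close paralogs that a probe set can share. *Cyp2b10*, *Cyp2b13*, *Cyp17a1* and *Sult1e1* had positive differences of 0.45, 0.77, 1.06 and 1.57 that were not called.

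**Figure D1:**
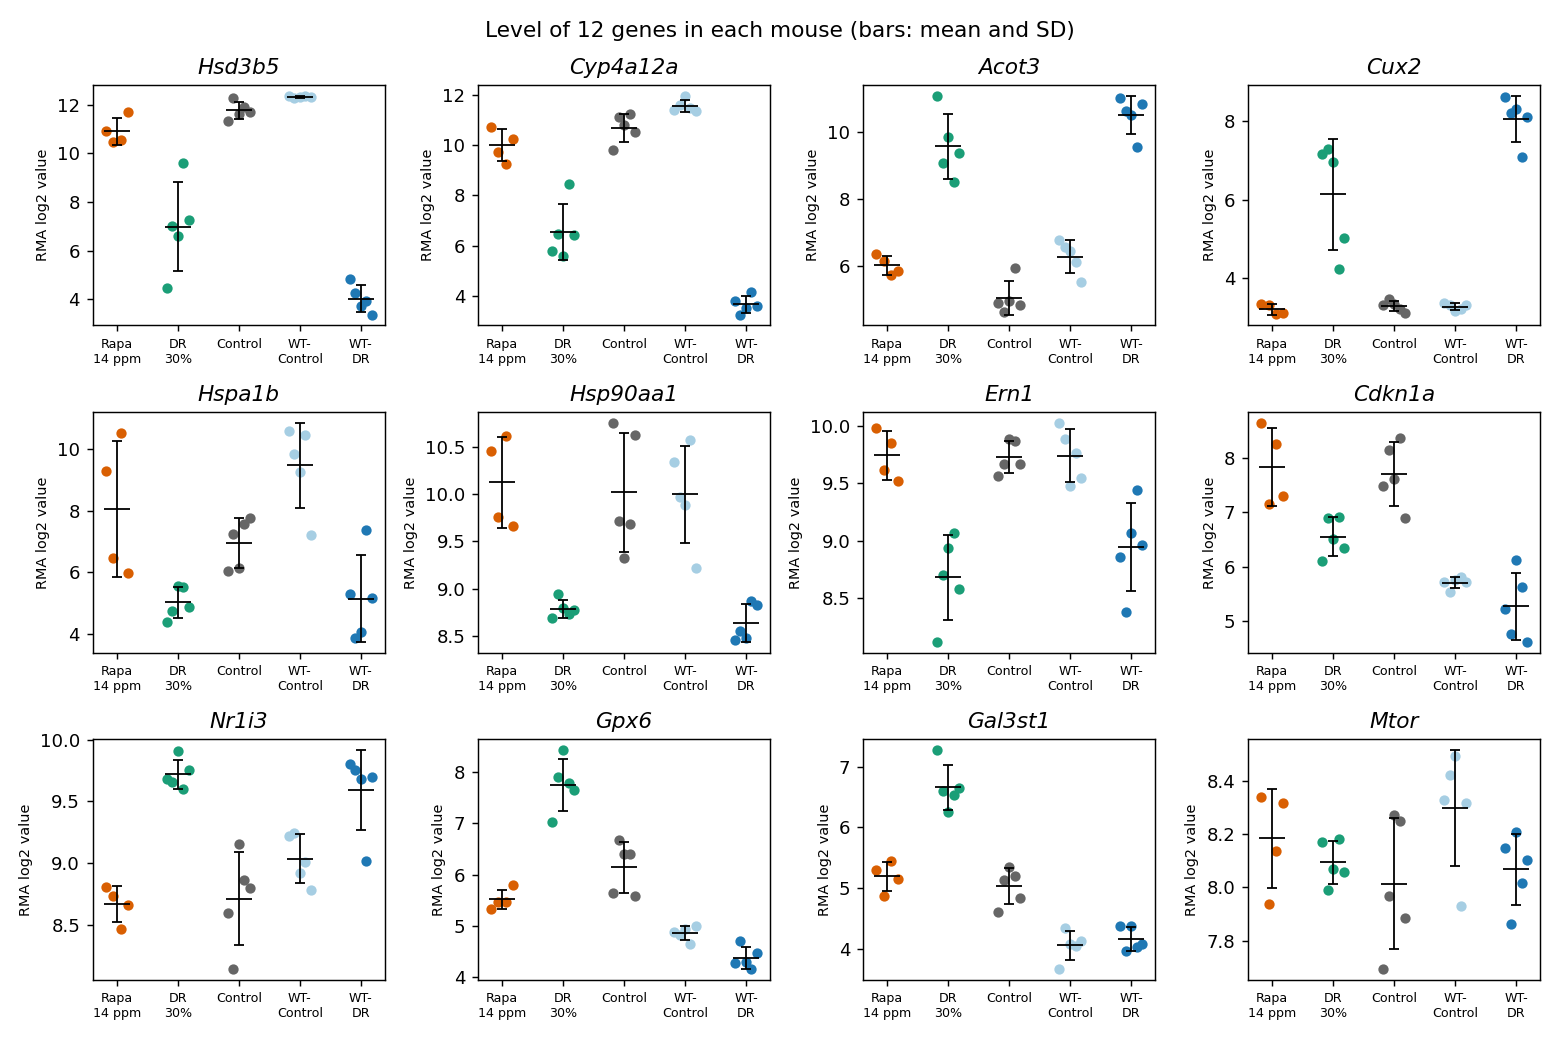
Each panel plots the RMA log2 value (y axis) of 1 gene in each of the 24 mice by group (x axis), with points for mice and bars for the mean and SD. Hsd3b5 and Cyp4a12a fell and Acot3, Cux2, Nr1i3, Gpx6 and Gal3st1 rose in DR 30% without overlap with Rapa 14 ppm, while Mtor ranged from 7.94 to 8.34 over the 9 mice. Absence of overlap was a condition in the choice of Hsd3b5, Cyp4a12a, Acot3, Cux2 and Gpx6.

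The sex-biased shift was graded among the DR 30% mice. Among the 20 called sex-biased genes, mouse 368 was the DR 30% mouse nearest to the Rapa 14 ppm mean in 15 and mouse 362 the farthest in 10. Over all 725 DEGs mouse 368 was the nearest in 330 (45.5%) and mouse 362 the farthest in 362 (49.9%). The mean level of the 19 male-biased genes was 7.49, 8.04, 7.89, 8.56 and 7.94 in DR 30% and 9.53, 8.96, 9.13 and 9.58 in Rapa 14 ppm, and that of the 17 female-biased genes was 7.43, 6.95, 7.21, 6.10 and 6.74 in DR 30% and 5.39, 5.53, 5.48 and 5.17 in Rapa 14 ppm. Neither list mean overlapped between the diets. For reference, Control mice averaged 9.72 and 5.12 on the male-biased and the female-biased list, WT-Control 10.25 and 4.89, and WT-DR 7.52 and 8.03. The growth hormone and IGF1 axis held 0 called genes of 19, against 1.27% of all genes higher and 0.843% lower. At those shares few or no calls fall on 19 genes, so the 0 does not set the list apart. *Igf1* was 12.37, 12.39, 12.41 and 12.40 in Rapa 14 ppm and 12.05, 12.28, 12.17, 12.16 and 12.08 in DR 30%, a difference of -0.25 ± 0.06 (SE, adjusted p = 0.0211) that did not reach the 1.5-fold threshold. The growth hormone receptor *Ghr* was likewise under the threshold, at -0.40 ± 0.08 (SE, adjusted p = 0.00343).

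**Figure D2:**
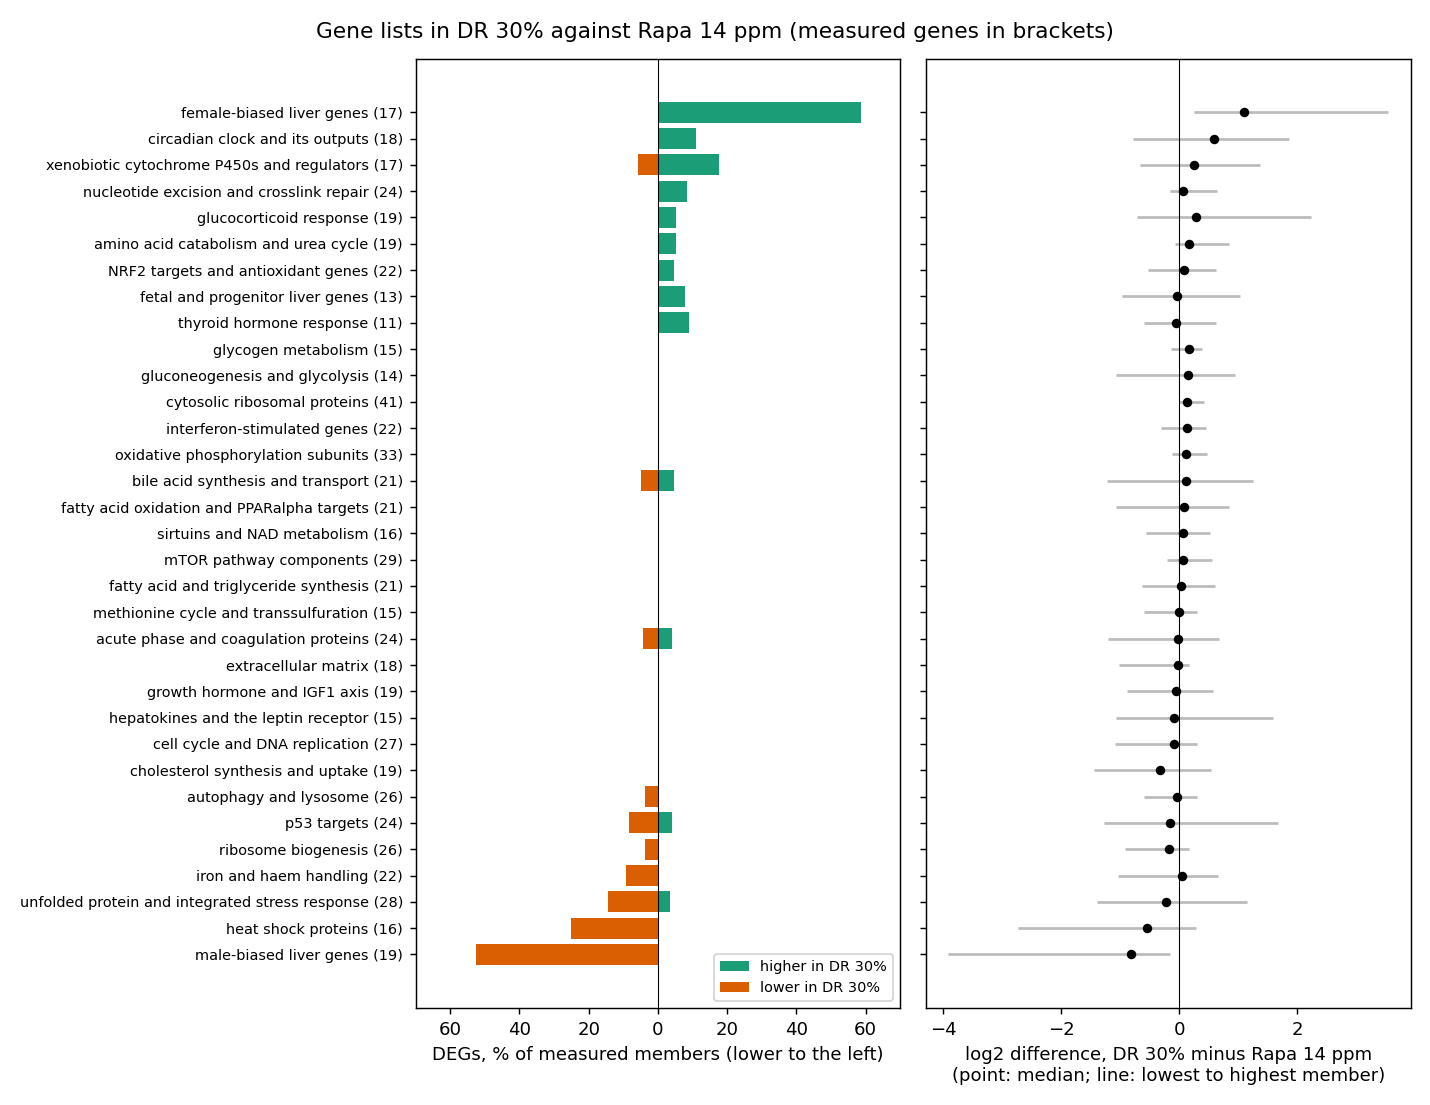
The left panel gives the percentage of measured members of each of the 33 gene lists that were DEGs, higher in DR 30% to the right and lower to the left, and the right panel the median log2 difference (point) and the range of the members (line). Sex-biased lists stand at both ends, with 10 of 17 female-biased genes higher and 10 of 19 male-biased genes lower.

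Several cytosolic chaperones were lower in DR 30%. Of 16 measured heat shock genes 4 were lower and 0 higher, against 0.843% of all genes lower, and the median difference was -0.54. *Hspa1b*, the stress-induced Hsp70, read 9.29, 6.46, 10.53 and 5.96 in Rapa 14 ppm and 4.39, 4.76, 5.54, 5.54 and 4.89 in DR 30%, a difference of -3.04 ± 0.81 (SE, adjusted p = 0.0292), and -2.73 on its brightest probe set. In a model of these 2 groups alone *Hspa1b* was not called on these probe sets (adjusted p = 0.0612 and 0.0632). Its copy *Hspa1a* is nearly identical in sequence, so the probes may read both. *Hsph1*, a co-chaperone of Hsp70, read 9.71, 8.67, 10.41 and 8.60 against 6.45, 7.24, 7.77, 7.61 and 7.30, a difference of -2.07 ± 0.54 (SE, adjusted p = 0.0248). *Hsp90aa1*, the inducible cytosolic Hsp90, read 10.46, 9.76, 10.62 and 9.66 against 8.69, 8.94, 8.80, 8.73 and 8.77, a difference of -1.34 ± 0.27 (SE, adjusted p = 0.00429). *Hspa8*, the constitutive Hsc70, was lower by a difference of -0.62 ± 0.16 (SE, adjusted p = 0.0267).

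In each of these 4 genes the groups did not overlap, which the choice of the largest decreases required of *Hspa1b* and *Hsph1*. The 4 Rapa 14 ppm mice were uneven in the 4 genes. Mice 535 and 537 were higher than mice 536 and 538 in all of them, by nearly 3 log2 units or more in *Hspa1b*. Among the uncalled members, *Dnajb1*, an Hsp40, read 9.24, 8.44, 9.79 and 8.23 in Rapa 14 ppm and *Bag3*, a co-chaperone of Hsp70, 8.82, 7.74, 9.26 and 7.81, against 7.69 to 8.33 and 7.30 to 7.74 in DR 30%. Without mouse 535, mouse 537 or DR 30% mouse 362 only 1 of the 4 heat shock genes was still called, and without DR 30% mouse 365 or 369 it was 2. *Hsp90aa1* was the gene called in all of these. Mitochondrial *Hspa9* went the other way, at 0.28 (adjusted p = 0.012), under the fold threshold. *Cirbp*, which encodes the cold-inducible RNA-binding protein and was picked after its values were seen, read 7.49, 7.72, 6.63 and 7.87 against 9.42, 9.05, 8.90, 8.77 and 9.06, a difference of 1.62 ± 0.27 (SE, adjusted p = 0.00101). *Rbm3*, another cold-inducible gene of the same family, differed by -0.68 ± 0.24 (SE, adjusted p = 0.111) and was not called.

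Chaperones of the endoplasmic reticulum followed with smaller differences. Of 28 measured genes of the unfolded protein and integrated stress response, 4 were lower, 1 was higher and 23 had a negative difference, with a median of -0.22, against 0.843% of all genes lower and 1.27% higher. *Hspa5*, which encodes the luminal Hsp70 BiP, read 12.60, 12.11, 12.44 and 12.11 against 11.72, 11.43, 11.66, 11.76 and 11.91, a difference of -0.62 ± 0.14 (SE, adjusted p = 0.00953). *Hyou1*, its nucleotide exchange factor, differed by -0.78 ± 0.17 (SE, adjusted p = 0.00839) and *Manf*, a secreted protein of the endoplasmic reticulum, by -0.93 ± 0.25 (SE, adjusted p = 0.0269). *Ern1*, the stress sensor IRE1α, read 9.99, 9.62, 9.86 and 9.52 against 8.12, 8.71, 8.94, 9.07 and 8.58, a difference of -1.06 ± 0.18 (SE, adjusted p = 0.00114), but 0 of its 4 other probe sets was called, and its value per gene was -0.33 (adjusted p = 0.0899). *Creld2*, a chaperone gene induced by stress of the endoplasmic reticulum, followed the uneven Rapa 14 ppm mice, at 10.40, 8.64, 10.25 and 8.72 against 7.91 to 8.19, and was not called (-1.39, adjusted p = 0.0741). The member that rose was *Trib3*, a pseudokinase induced by ATF4, at 6.67, 6.97, 6.39 and 7.28 against 7.79, 7.86, 7.94, 8.40 and 7.89, a difference of 1.15 ± 0.29 (SE, adjusted p = 0.0222). Calls of the lower members numbered 1 without mouse 535, and 2 without mouse 537 or DR 30% mouse 365, and *Trib3* was not called without mouse 535, mouse 537 or DR 30% mouse 368.

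Part of the unfolded protein list shares a promoter sequence, shown here because the element is known to drive chaperone genes under stress of the endoplasmic reticulum and its presence was not chosen by the expression values. The ER stress element, written CCAAT, then 9 bases of any kind, then CCACG, was searched on both strands of the 250 bases before each start site in the RefSeq promoters of GRCm38.p6. It was found in 37 of 32851 promoters (0.113%) and in 7 of the 25 genes of the list that matched the promoter table. Below are 7 matches of these 7 genes with their flanks, 5′ to 3′ on the strand of the gene, with the element in capitals.
Hspa5: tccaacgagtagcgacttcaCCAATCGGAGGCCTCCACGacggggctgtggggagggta
Creld2: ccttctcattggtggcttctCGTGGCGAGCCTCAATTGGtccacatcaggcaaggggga
Pdia6: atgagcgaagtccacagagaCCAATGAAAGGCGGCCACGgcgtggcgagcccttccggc
Calr: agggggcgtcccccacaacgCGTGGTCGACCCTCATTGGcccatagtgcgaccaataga
Hsp90b1: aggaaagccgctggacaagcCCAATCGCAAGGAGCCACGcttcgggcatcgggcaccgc
Dnajc3: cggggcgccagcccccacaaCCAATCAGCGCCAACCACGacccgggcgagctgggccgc
Canx: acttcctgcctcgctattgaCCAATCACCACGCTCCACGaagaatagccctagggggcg
They lie at chr2:34772005-34772063 for *Hspa5* on the plus strand, chr15:88819500-88819558 for *Creld2* (plus), chr12:17266471-17266529 for *Pdia6* (plus), chr8:84847055-84847113 for *Calr* (minus), chr10:86705618-86705676 for *Hsp90b1* (minus), chr14:118937807-118937865 for *Dnajc3* (plus) and chr11:50325780-50325838 for *Canx* (minus). In *Creld2* and *Calr* the element stands in the reverse orientation, and *Hsp90b1* holds another match that is not shown. All of these stretches are upstream of the annotated start and outside exons of that transcript.

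The 7 genes with the element had differences of -0.62 (*Hspa5*), -1.39 (*Creld2*), -0.35 (*Pdia6*), -0.28 (*Calr*), -0.19 (*Hsp90b1*), -0.19 (*Dnajc3*) and -0.17 (*Canx*). Only *Hspa5* was called on the probe set used for these differences. The other probe set of *Hsp90b1* was a DEG, at -0.63. The median of the 7 was -0.28, against -0.21 for the 18 matched members without the element, of which 13 had a negative difference. A match of letters does not show that a factor was bound. A heat shock element written GAA, 2 bases of any kind, TTC, 2 bases of any kind and GAA, searched in the same way, was found in 153 promoters (0.466%) and in 1 of 12 matched heat shock genes, *Hspe1*, which differed by -0.04.

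**Figure D3:**
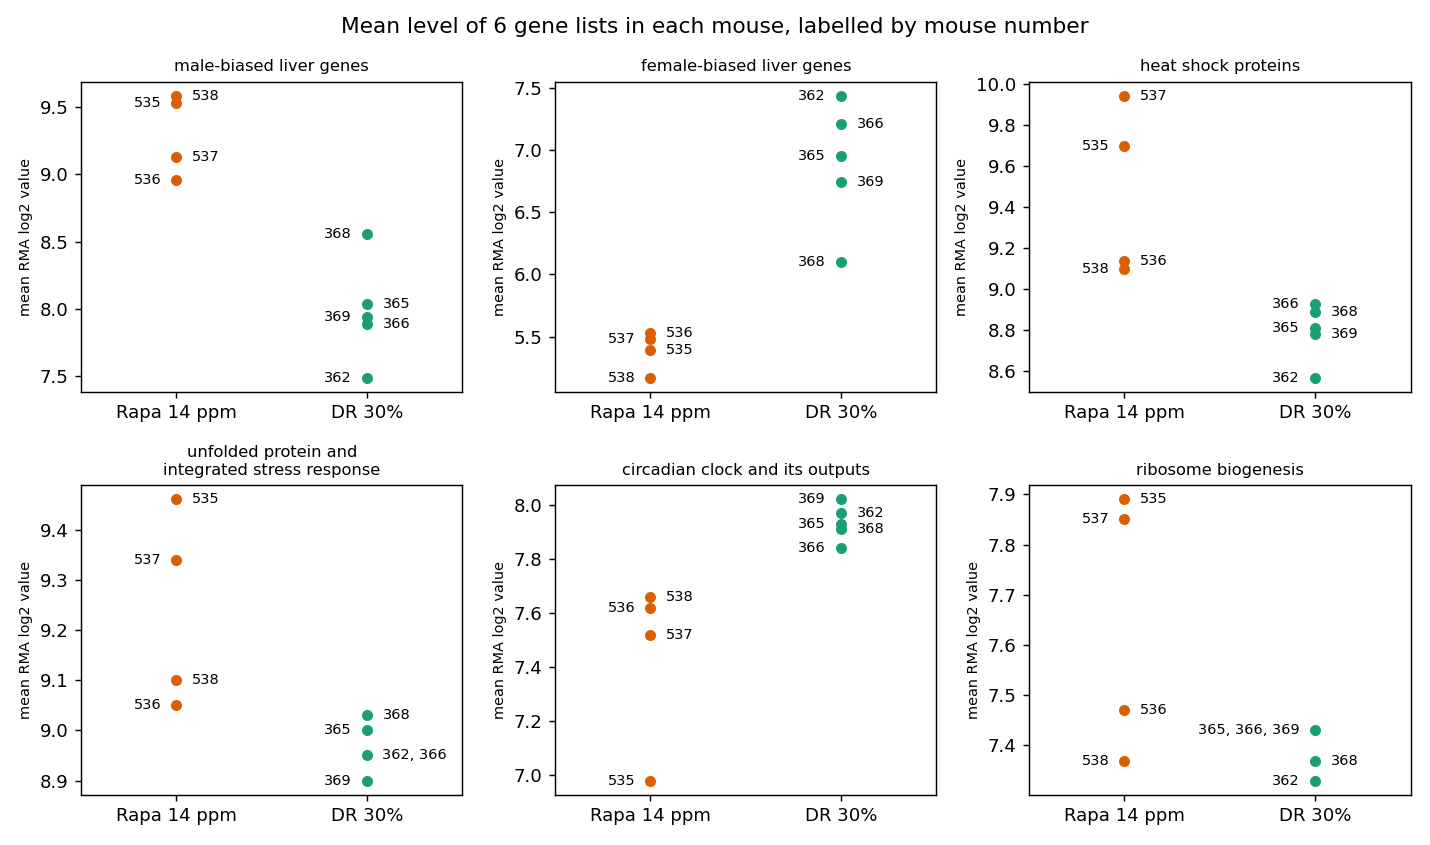
Mean RMA log2 value (y axis) of 6 gene lists in each Rapa 14 ppm and DR 30% mouse (x axis), with mouse numbers beside the points. Mouse 368 is the DR 30% mouse nearest to Rapa 14 ppm in the sex-biased panels, and mice 535 and 537 stand above mice 536 and 538 in the heat shock, unfolded protein and ribosome biogenesis panels.

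The same pair of Rapa 14 ppm mice stood apart in ribosome biogenesis, a process that mTOR complex 1 promotes. The mean of 26 such genes was 7.89 and 7.85 in mice 535 and 537, 7.47 and 7.37 in mice 536 and 538, and 7.33 to 7.43 in DR 30%. DR 30% averaged 7.40, close to the 7.38 of Control, 7.39 of WT-Control and 7.41 of WT-DR. The list held 0 higher and 1 lower gene, against 0.843% of all genes lower, with a median difference of -0.18. The called gene was *Nop58*, a core protein of box C/D small nucleolar ribonucleoproteins, at 9.62, 8.88, 9.66 and 8.30 against 8.09, 8.47, 8.10, 7.96 and 8.35, a difference of -0.92 ± 0.25 (SE, adjusted p = 0.0316). Its groups overlapped, since mouse 538 read within the DR 30% range, and the call was lost without mouse 535, 537, 362, 366 or 368. In a model of these 2 groups alone *Nop58* was not called either (adjusted p = 0.0662). DR 30% minus Control was -0.38 for *Nop58* (adjusted p = 0.37). *Slc25a30*, a mitochondrial carrier among the 15 largest decreases, had the same layout, at 11.21, 8.45, 10.55 and 9.04 against 7.36 to 7.87, a difference of -2.11 ± 0.55 (SE, adjusted p = 0.0251), lost without mouse 535, 537 or 366.

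The parts of the mTOR pathway differed little. Of 29 measured components 0 were called, against 1.27% of all genes higher and 0.843% lower, and the median difference was 0.06. At those shares few or no calls fall on 29 genes, so the 0 does not set the list apart. The list mean was 8.05 to 8.10 in Rapa 14 ppm and 8.12 to 8.18 in DR 30%, without overlap. *Mtor* differed by -0.09 (95% CI -0.33 to 0.15), *Rheb*, the GTPase that activates the complex, by -0.08 (adjusted p = 0.646), *Fkbp1a* by 0.05 (adjusted p = 0.811) and *Rps6*, a ribosomal protein downstream of it, by -0.01 (adjusted p = 0.945). *Tsc1*, an inhibitor of Rheb, read 6.71, 7.03, 6.92 and 6.92 against 7.25, 7.11, 7.10, 7.10 and 7.19, a difference of 0.25 (adjusted p = 0.122). Components with an FDR under 0.05 but less than 1.5-fold were *Eif4ebp2*, a translational repressor (0.56), *Rps6kb2*, an S6 kinase (0.51), and *Rragc*, a Rag GTPase (0.31). These are 3 of 29, beside 4.39% of all genes with an FDR under 0.05 and a positive difference. Genes of cytosolic ribosomal proteins were slightly higher in DR 30%, with a median of 0.14 and a range of 0.00 to 0.42 over 41 genes. Here 0 were DEGs, but 11 of the 41 had an FDR under 0.05 and a positive difference, against 4.39% of all genes. Oxidative phosphorylation subunits had a median of 0.12, with 30 of 33 above 0 and 0 DEGs. Few or no DEGs fall on 33 genes at the shares given above. Of the 26 autophagy and lysosome genes 1 was a DEG, against 1.27% of all genes higher and 0.843% lower. This was *Ulk2*, a kinase that starts autophagy (-0.59 ± 0.15, SE, adjusted p = 0.0208). Its call was lost without mouse 362, 535, 537 or 538, and in a model of these 2 groups alone (adjusted p = 0.0633). These are transcript levels, and mTOR kinase activity was not measured on the arrays.

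Among the clock genes 2 of 18 measured were higher in DR 30% and 0 lower, against 1.27% of all genes higher, with a median difference of 0.59 that was 0.33 without mouse 535. *Cry2*, a repressor of the core clock, read 6.83, 7.40, 7.55 and 7.69 against 8.22, 8.19, 8.18, 8.31 and 8.38, a difference of 0.89 ± 0.15 (SE, adjusted p = 9.8e-04). *Hlf*, a PAR bZIP factor and clock output, read 7.10, 7.73, 7.46 and 7.97 against 8.26, 8.33, 8.32, 8.30 and 8.26, a difference of 0.73 ± 0.14 (SE, adjusted p = 0.00267), and without mouse 535 it fell just under the fold threshold at 0.57. Mouse 535 was the low mouse of the drug group. Its list mean was 6.98 against 7.52 to 7.66 in the other 3 Rapa 14 ppm mice and 7.84 to 8.02 in DR 30%. *Ciart*, a clock-controlled repressor, read 4.63 in mouse 535, 6.75 to 6.86 in the other 3 and 7.43 to 8.48 in DR 30% (1.80, adjusted p = 0.124). *Usp2*, a clock-controlled deubiquitinase, read 5.77, 7.98, 8.32 and 8.58 against 8.93, 9.86, 9.58, 9.37 and 9.89 (1.87, adjusted p = 0.223). *Per3* read 6.18 in mouse 535 and 7.55 to 8.36 in the others. The position of mouse 535 and the hour of sampling cannot be told apart here.

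Xenobiotic and bile acid genes changed in a few members. *Nr1i3*, the nuclear receptor CAR, read 8.81, 8.74, 8.47 and 8.66 against 9.68, 9.66, 9.90, 9.60 and 9.75, a difference of 1.05 ± 0.16 (SE, adjusted p = 5.3e-04). Of the 17 xenobiotic genes 3 were higher and 1 lower, against 1.27% and 0.843% of all genes, with a median of 0.26. *Cyp2c37* (1.37) and *Cyp2c29* (0.88) were the other higher members, and *Cyp2j5*, an epoxygenase, was lower (-0.66, not called without mouse 362). Outside the list, *Cyp2c39* rose by 2.14 ± 0.31 (SE, adjusted p = 2.6e-04). The Cyp2c genes are close paralogs, so their probe sets may share transcripts. Among 21 bile acid genes, *Slco1a4*, an organic anion transporter, was higher at 9.09, 10.28, 10.05 and 9.75 against 11.19, 10.99, 11.09, 10.81 and 11.19 (1.26 ± 0.24, SE, adjusted p = 0.00343), and *Cyp7b1* of the alternative synthesis pathway was lower. *Cyp7a1*, the rate-limiting enzyme of the classic pathway, differed by 0.22 (95% CI -0.75 to 1.19). *Cyp39a1*, an oxysterol 7α-hydroxylase, was higher by 2.01 ± 0.27 (SE, adjusted p = 1.5e-04).

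Among the p53 targets 2 of 24 were lower and 1 higher, against 0.843% and 1.27% of all genes, with a median of -0.16, and 0 were called without mouse 537 or without DR 30% mouse 362. *Cdkn1a*, which encodes the cell cycle inhibitor p21, read 8.64, 7.16, 8.25 and 7.30 in Rapa 14 ppm and 6.11, 6.90, 6.52, 6.91 and 6.35 in DR 30%, a difference of -1.28 ± 0.31 (SE, adjusted p = 0.0177). Again mice 535 and 537 were high, and without mouse 535, mouse 537 or DR 30% mouse 362 the adjusted p was 0.0951, 0.0761 or 0.0531. Both diets lay above the 5.71 ± 0.10 (SD, n = 5) of WT-Control. *Ccng1*, another p53 target, was lower by a difference of -0.59 ± 0.14 (SE, adjusted p = 0.0157), just past the fold threshold. *Ddit4*, an inhibitor of mTOR complex 1 induced by several stresses, was higher at 6.23, 6.51, 6.61 and 7.34 against 8.48, 10.08, 8.49, 7.04 and 7.62 (1.67 ± 0.44, SE, adjusted p = 0.0257). Its groups overlapped, and the call was lost without any of 6 of the 9 mice. In a model of these 2 groups alone *Ddit4* and *Ccng1* were not called (adjusted p = 0.0914 and 0.0866). *Phlda3*, *Eda2r* and *Zmat3*, also p53 targets, had differences of -0.87, -0.75 and -0.49 that were not called, and *Mdm2* -0.04.

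In DNA repair, 2 of 24 measured genes of nucleotide excision and crosslink repair were higher and 0 lower, against 1.27% of all genes higher, with a median of 0.06. *Xpa*, the damage verification factor of nucleotide excision repair, read 7.27, 7.68, 7.33 and 7.58 against 8.00, 8.18, 8.30, 7.89 and 8.18, a difference of 0.65 ± 0.13 (SE, adjusted p = 0.0047). Without mouse 535 it was 0.58, just under the threshold. The 2 other probe sets of *Xpa* differed by -0.11 and -0.02 and were not called. *Fancc*, a member of the Fanconi core complex, differed by 0.59 ± 0.11 (SE, adjusted p = 0.0038) on this probe set and by 0.17 (adjusted p = 0.185) in the values per gene. Its other probe set differed by -0.05. The call of *Fancc* was lost without mouse 362, 365, 366 or 537.

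Several other genes with large differences lay outside these lists. *Gstt3*, a glutathione transferase, read 7.32, 8.01, 7.94 and 7.20 against 10.52, 10.21, 9.78, 9.30 and 10.12 (2.37 ± 0.25, SE, adjusted p = 8.1e-06). *Nipal1*, a magnesium transporter, was higher by 3.12 ± 0.40 (SE, adjusted p = 9.7e-05). *Mt1*, a metallothionein and glucocorticoid target, was the only DEG of 19 glucocorticoid response genes, against 1.27% of all genes higher and 0.843% lower. It read 10.04, 9.04, 9.63 and 9.11 against 11.13, 12.89, 12.51, 10.89 and 11.04 (2.24 ± 0.52, SE, adjusted p = 0.0119). *Abcd2*, a peroxisomal transporter of very long chain fatty acids (2.13), *Abcb1a*, the drug efflux pump P-glycoprotein (2.05), *Ildr2* (1.81) and *Cyp2g1* (1.68) completed the 15 largest increases. These 15 were taken among DEGs of 1 gene whose mice did not overlap. The largest difference of any DEG was 6.21, on a probe set left out by that choice. On the lower side stood *Slc22a7*, the organic anion transporter OAT2, at 10.89, 10.01, 10.76 and 11.01 against 8.29, 8.51, 8.58, 9.43 and 8.28 (-2.05 ± 0.27, SE, adjusted p = 1.3e-04), *Ugt2b37*, a glucuronosyltransferase (-1.93), *Dnaic1*, a dynein chain of motile cilia (-1.74), and *Tchh*, trichohyalin (-1.57). *Tchh*, at 2.82 to 3.08 in DR 30%, was at the dim end of the array and was not called without mouse 535 or 537. The histone H3 genes *H3c15* and *H3c14* were lower by differences of -1.61 and -1.56, and their sequences are near copies of each other. *Egfr*, the epidermal growth factor receptor, read 9.51, 8.80, 9.17 and 8.86 against 7.44, 8.12, 7.99, 7.86 and 7.42 (-1.32 ± 0.22, SE, adjusted p = 0.00101) and differed by -1.42 on its brightest probe set. *C8a* and *C8b*, subunits of the complement membrane attack complex that were picked after their values were seen, were lower by differences of -1.30 and -1.24.

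The remaining lists held at most 2 DEGs each, against 1.27% of all genes higher and 0.843% lower. *Prodh*, proline dehydrogenase, was the DEG of amino acid catabolism (0.84), *Abcc4*, an efflux transporter, that of the NRF2 targets (0.63), and *Thra*, a thyroid hormone receptor, that of the thyroid list (0.63, but 0.14 in the values per gene). *Apcs*, serum amyloid P, was higher (0.60) and *Saa3*, an acute phase protein, lower (-0.71). *Uros*, an enzyme of haem synthesis, and *Steap4*, a metalloreductase, were lower (-0.71 and -1.03). Their other probe sets differed by -0.04 and -0.90 and were not called. *Steap4* and *Apcs* overlapped between the groups. The calls of *Apcs*, *Saa3* and *Steap4* were lost without mouse 362, 535 or 537, among others, those of *Abcc4* and *Uros* without mouse 362, and that of *Thra* without mouse 535. Of the 33 lists 15 held 0 DEGs, among them interferon-stimulated genes (22 measured, median 0.13), extracellular matrix (18, -0.02), cholesterol synthesis and uptake (19, -0.32), fatty acid and triglyceride synthesis (21, 0.03), fatty acid oxidation and PPARα targets (21, 0.08), gluconeogenesis and glycolysis (14, 0.15) and the cell cycle (27, -0.09). At the shares of all genes few or no DEGs fall on lists of these sizes, so the 0 does not set them apart. A difference in the genes of these lists may still be there, since the spread was wide in some. *Sqle* of cholesterol synthesis had the widest example, at -1.45 with a 95% CI of -2.93 to 0.03.

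The WT mice, which share no animals with the 9 mice above, gave the effect of restriction in another genotype. There 1538 probe sets (3.41%) were higher and 1187 (2.63%) lower in WT-DR than in WT-Control. Of the 407 DEGs higher in DR 30% than in Rapa 14 ppm, 230 (56.5%) were also higher in WT-DR, which is 15% of the WT list. Of the 318 lower DEGs, 189 (59.4%) were also lower in WT-DR, which is 15.9% of the WT list. In the opposite direction 0 of the 407 and 0 of the 318 were called. The median WT difference was 0.66 over the higher and -0.79 over the lower DEGs. More than 56% of the DEGs in either direction were thus called the same way when food was restricted in WT mice without any drug.

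**Figure D4:**
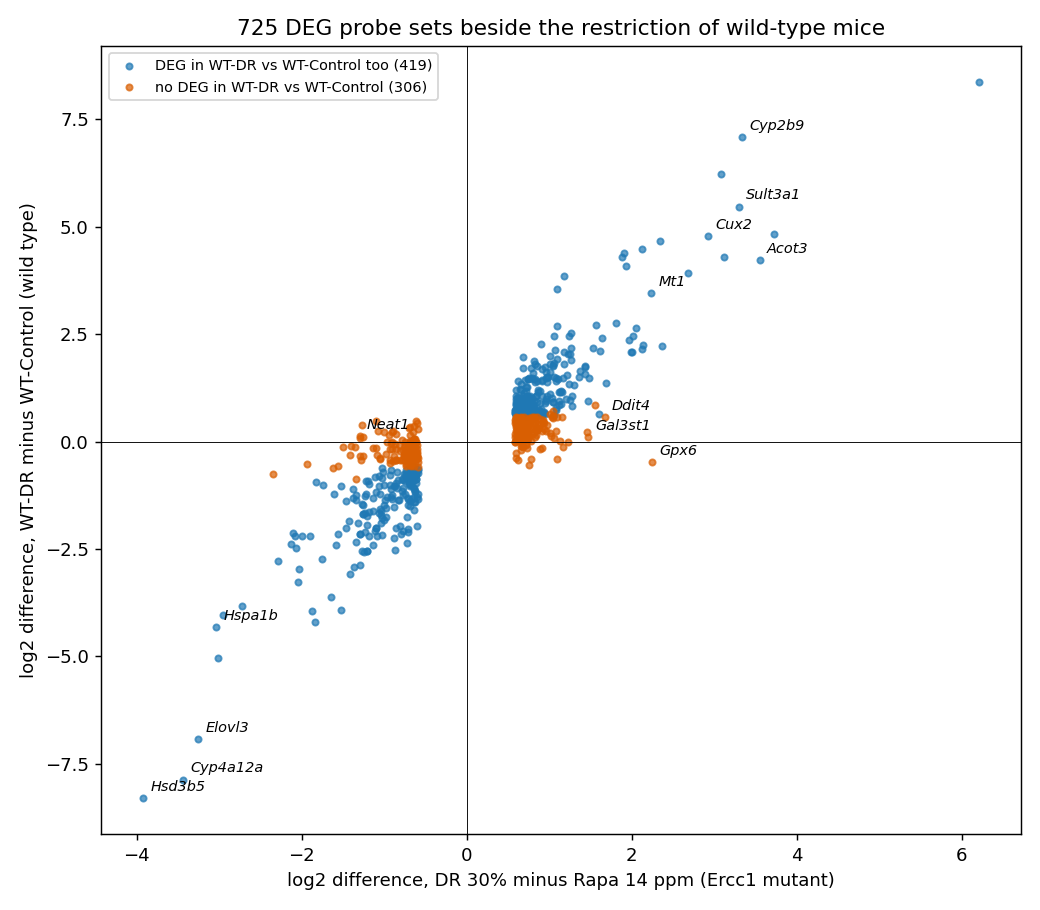
Each point is 1 of the 725 DEG probe sets, with its log2 difference between DR 30% and Rapa 14 ppm in Ercc1 mutant mice (x axis) and between WT-DR and WT-Control (y axis), coloured by whether it was a DEG in WT. Sex-biased genes lie at both ends with larger WT differences, and Gpx6 and Gal3st1 lie near 0 or below on the y axis.

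The sizes differed for some genes. The test of the difference between the contrasts, which was added after the data were seen, called 660 probe sets over the whole array (1.46%) and 42 of the 407 higher and 42 of the 318 lower DEGs. This test contains the contrast that chose the DEGs, so a larger share among them follows from the choice. Among the male-biased genes 3 of the 4 largest decreases were larger in WT. *Cyp4a12a* differed by -7.87 between WT-DR and WT-Control against -3.44 between DR 30% and Rapa 14 ppm (difference of the differences 4.42, adjusted p = 2.3e-04), *Hsd3b5* by -8.30 against -3.92 (4.38, adjusted p = 0.00485) and *Elovl3* by -6.92 against -3.25 (3.66, adjusted p = 0.00137). For *Serpina4-ps1*, *Keg1*, *Cyp7b1* and *Slco1a1* the difference between the contrasts was not called (adjusted p = 0.144, 0.223, 0.169 and 0.0927). Among the female-biased genes *Cyp2b9* rose by 7.08 in WT against 3.33 (-3.74, adjusted p = 0.0218), *Fmo2* by 4.29 against 1.89 (-2.40, adjusted p = 0.00501) and *Trim24* by 2.72 against 1.57 (-1.15, adjusted p = 0.0132). *C8a* and *C8b* fell further in WT too, by differences of -2.87 and -2.57 (1.58 and 1.32, adjusted p = 0.009 and 0.0108). The starting level was not the same, since Rapa 14 ppm mice already read 9.98 for *Cyp4a12a* against 11.54 in WT-Control. The WT contrast has no drug in it, so genotype and drug cannot be told apart in these tests alone. DR 30% minus Control, also without drug, was -4.15 for *Cyp4a12a*, -4.78 for *Hsd3b5*, -4.79 for *Elovl3* and 4.06 for *Cyp2b9*. Rapa 14 ppm minus Control was -0.70, -0.86, -1.53 and 0.72 in these genes (adjusted p = 0.6, 0.661, 0.142 and 0.762). Whether DR 30% minus Control differs from the WT contrast was not tested.

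Other genes separated DR 30% from Rapa 14 ppm and did not follow restriction in WT. *Gpx6*, a glutathione peroxidase, read 5.33, 5.46, 5.47 and 5.79 in Rapa 14 ppm and 7.02, 7.90, 8.43, 7.79 and 7.65 in DR 30%, a difference of 2.24 ± 0.22 (SE, adjusted p = 3.9e-06), while WT-DR and WT-Control averaged 4.38 and 4.85 (-0.47, adjusted p = 0.12). The contrasts differed by 2.71 (adjusted p = 4.8e-05). *Gal3st1*, the sulfotransferase that makes sulfatides, read 5.29, 4.87, 5.45 and 5.16 against 7.27, 6.59, 6.26, 6.54 and 6.64 (1.47 ± 0.17, SE, adjusted p = 3.7e-05) and 4.06 and 4.17 on average in WT-Control and WT-DR (difference of the differences 1.36, adjusted p = 0.00485). *Itpka*, an inositol trisphosphate kinase, and *Lpl*, lipoprotein lipase, were higher by 1.23 and 0.92 in DR 30% and differed by -0.00 and -0.14 in WT (difference of the differences 1.23 and 1.06, adjusted p = 0.00231 and 0.0395). Against Control, DR 30% differed by 1.19 for *Itpka* (adjusted p = 4.1e-06) but only by 0.23 for *Lpl* (adjusted p = 0.504). *Lpl* averaged 9.57 in Control, 9.80 in DR 30% and 8.89 in Rapa 14 ppm. *Nptx1*, a neuronal pentraxin, was 2.82-fold lower (adjusted p = 9.6e-04) and differed by -0.12 in WT (-1.37, adjusted p = 0.0351). *Gal3st1*, *Itpka* and *Lpl* were picked after their values were seen, so their adjusted p values for the difference of the differences describe the choice and give no further support. *Gpx6* and *Nptx1* were chosen by their difference between DR 30% and Rapa 14 ppm, which that test contains. Their adjusted p values for the difference of the differences give no further support either.

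Long noncoding RNAs were picked in the same way. *Neat1*, the scaffold of paraspeckles, read 12.78, 12.35, 12.48 and 12.07 against 10.05, 11.32, 11.29, 11.87 and 11.08, a difference of -1.30 ± 0.31 (SE, adjusted p = 0.0158), and WT differed by 0.13. *Meg3*, an imprinted transcript, read 7.39, 7.05, 7.70 and 8.54 against 5.18, 5.90, 6.41, 7.81 and 6.04, a difference of -1.40 ± 0.34 (SE, adjusted p = 0.0164), with overlap at mouse 368. For both, the difference between the contrasts was not called (-1.43 and -1.31, adjusted p = 0.0849 and 0.149), and the call of *Neat1* was lost without mouse 535 (adjusted p = 0.0676) and that of *Meg3* without mouse 362 or mouse 538 (adjusted p = 0.0516 and 0.0658). In the values per gene *Meg3* differed by -0.49, and in a model of these 2 groups alone it was not called (adjusted p = 0.12).

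A few genes fixed by name are given with their Control level. *Ppp1r3g*, a regulatory subunit of a glycogen-targeted phosphatase, read 7.13, 9.40, 9.00 and 7.97 in Rapa 14 ppm and 9.07, 9.84, 8.11, 6.89 and 8.54 in DR 30% (0.12 ± 0.48, SE, adjusted p = 0.946), and Control averaged 5.21. *Lepr*, the leptin receptor, averaged 7.00 with rapamycin and 8.59 with restriction, against 5.38 in Control mice. Its mice read 7.03, 7.42, 8.17 and 5.39 against 9.90, 8.43, 9.44, 7.19 and 7.99, and the difference of 1.59 ± 0.56 (SE) was not called (adjusted p = 0.11). *Afp*, alpha-fetoprotein, a gene of the fetal liver, averaged 7.84 in Rapa 14 ppm, 7.89 in DR 30%, 8.46 in Control and 4.20 in WT-Control, and the diets differed by 0.05 (adjusted p = 0.946).

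Gene length was examined because unrepaired DNA damage blocks transcription more often in long genes. For each mouse the slope of its log2 difference from the WT-Control mean was taken over the log10 length of 10329 genes. The slope was -0.0843, -0.0527, -0.0874 and -0.0743 in Rapa 14 ppm and -0.0291, -0.0746, -0.0679, -0.0602 and -0.0564 in DR 30%, in log2 units per 10-fold length. All 9 slopes were negative. The slopes of the WT-Control mice, whose mean was the reference, ran from -0.0506 to 0.0297, and DR 30% mouse 362 lay within that range. The means of Rapa 14 ppm and DR 30% were -0.0747 ± 0.0157 (SD, n = 4) and -0.0576 ± 0.0174 (SD, n = 5), and their mice overlapped. The difference was 0.017 (exact two-sided permutation p = 0.19, where 4 against 5 mice cannot go below 0.0159). The genes were divided by length into 10 equal bins. In the bin of the longest genes, those over 112 kb, the mean was -0.168 to -0.108 in the 4 Rapa 14 ppm mice and -0.130 to -0.069 in the 5 DR 30% mice, which overlap. DR 30% minus Rapa 14 ppm was 0.040 in that bin and 0.011 in the shortest. In the values per gene the slopes differed by 0.0027, and with no minimum of expression by 0.0138 (exact two-sided permutation p = 0.0476).

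**Figure D5:**
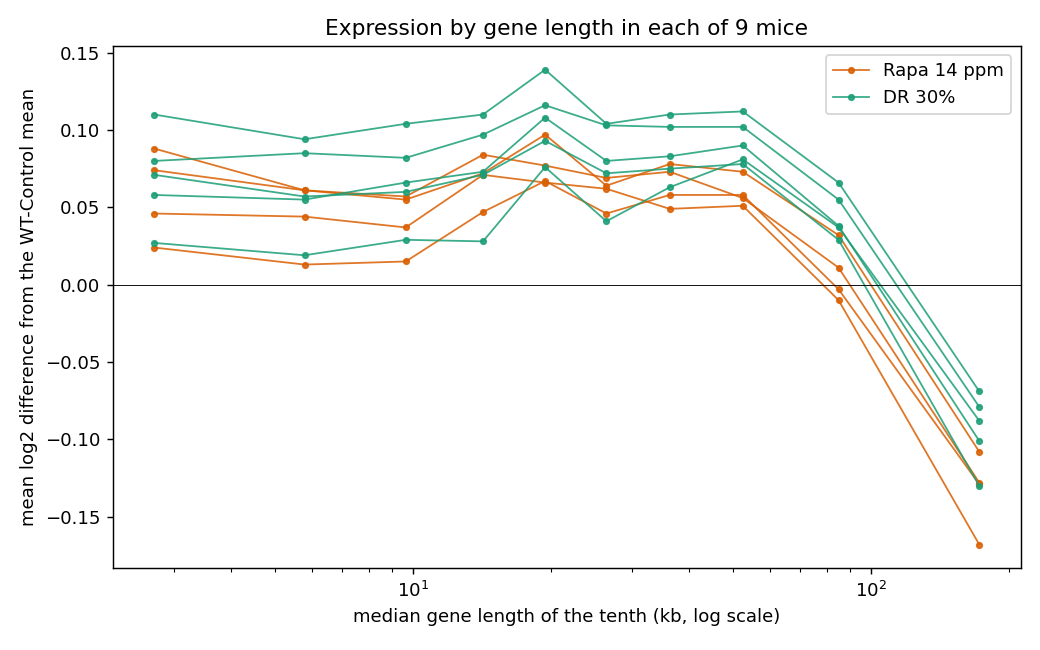
Mean log2 difference from the WT-Control mean (y axis) for each of 10 bins of 10329 genes by length, placed at the median gene length of the bin (x axis, log scale), with 1 line per mouse. All 9 lines drop in the bin of the longest genes, to between -0.168 and -0.069, and the lines of both diets overlap there.

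The DEGs were not set apart by length. Higher DEGs had a median length of 23.5 kb (274 genes) and lower DEGs of 23.8 kb (197 genes), against 20.1 kb over all genes measured, and 11.7% and 11.2% of them were longer than 100 kb against 12.5% of all. Long genes were found in both directions. Long higher DEGs included *Pik3c2g*, a phosphoinositide 3-kinase of class II (355 kb, 0.85), *Prkag2*, a subunit of AMP-activated kinase (244 kb, 0.82), *Rcan2*, a calcineurin regulator (238 kb, 1.28), *Cobl*, an actin nucleator (228 kb, 0.84), and *Mthfd1l*, a mitochondrial folate enzyme (194 kb, 0.68). The longest lower DEGs were *Zbtb20*, a hepatic zinc finger repressor (759 kb, -0.61), *Carmil1*, an actin regulator (268 kb, -1.21), *Lama3*, a laminin chain (250 kb, -0.72), *Phkb*, a subunit of phosphorylase kinase (223 kb, -0.64 ± 0.08, SE, adjusted p = 5.4e-05), *Nhsl1* (216 kb, -0.72) and *Necab1* (198 kb, -0.74). Leaving out a mouse ended the calls of *Zbtb20* (mouse 366 or 537), *Rcan2* (535), *Mthfd1l* (362), *Nhsl1* and *Necab1* (6 mice each). In the values per gene *Phkb*, *Prkag2* and *Cobl* were under the fold threshold, at -0.56, 0.49 and 0.58. Other probe sets of *Rcan2* (0.14), *Lama3* (-0.06) and *Nhsl1* (-0.27 to 0.03) were not called, while *Zbtb20* and *Prkag2* had others that were.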

How the data were processed

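Liver RNA of each mouse was hybridized by the authors to 1 array of an Affymetrix plate (HT MG-430 PM), and samples with low RNA integrity were left out by them. The deposited values were log2 values made by the authors with RMA in the arrayanalysis.org pipeline, and the version of RMA and the set of arrays normalized together were not given in the sources used here. The main table held 45141 probe sets for 24 mice, and a table of the same mice with 17306 gene-based probe sets served as an alternative, called the values per gene. All probe sets were fitted in R 4.3.3 with limma 3.58.1, with a mean for each of the 5 groups, 19 residual degrees of freedom and no covariates. Every adjusted p of a single gene comes from this fit unless another setting is named. The thresholds follow the methods of the study (FDR under 0.05, 1.5-fold). Of the probe sets, 28898 had 1 gene symbol, 551 several and 15692 were not named here. Symbols, gene lengths and promoters were those of RefSeq for GRCm38.p6, and for each gene of a list the probe set with the highest mean level was taken.

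Named genes were the 15 largest increases and decreases among DEGs of 1 gene whose mice did not overlap, up to 4 DEGs per list with the smallest adjusted p, a fixed set of 12 genes (*Ercc1*, *Cdkn1a*, *Mtor*, *Rheb*, *Tsc1*, *Fkbp1a*, *Rps6*, *Igf1*, *Lepr*, *Usp2*, *Ppp1r3g* and *Afp*), and the 10 longest DEGs in each direction. The groups, lists and genes were chosen with earlier results of these data known. The labels do not number mice across groups. Adjusted p values of single genes rest on a spread between mice within groups that is shared over all 5 groups, WT included. The diets compared can spread more than that. In *Meg3* the SD was 0.64 in Rapa 14 ppm and 0.97 in DR 30%, but 0.07 in WT-Control and 0.12 in WT-DR. For slopes and spike-ins an exact permutation test over the 9 mice was used, two-sided. The fit was checked on simulated data with known changes. Alternatives were the values per gene, a model of 2 groups, the omission of dim probe sets, renewed quantile normalization, median centring, trend and robust variances, other fold thresholds and each mouse left out. Some items are not reported here.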

Additional observations from a re-analysis of the deposited data

Results flagged for a closer look

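Within the 4 Rapa 14 ppm or the 5 DR 30% mice, 182 groups of values of the named genes, the length slope and the spike-ins were examined for a mouse far from the rest of its group, and 9 were found, where chance gives about 1 in 20. The measure is the gap of the extreme mouse to its neighbour as a share of the whole range. In Rapa 14 ppm it was 0.904 for *Fmo2* (mouse 536 at 6.74, others 5.76 to 5.85), 0.832 for *Fancc* (mouse 537 at 4.50, others 4.85 to 4.92) and 0.890 for *Prodh* (mouse 535 at 9.58, others 10.32 to 10.41). In DR 30% mouse 368 was the extreme mouse for *Slc22a7* (0.734, at 9.43 against 8.28 to 8.58), *Trib3* (0.750, at 8.40 against 7.79 to 7.94) and *Cobl* (0.730, at 5.65 against 5.98 to 6.10). Mouse 362 was low for *Ulk2* (0.752, at 7.64 against 8.23 to 8.43) and *Steap4* (0.758, at 9.86 against 10.33 to 10.48), and mouse 366 was high for *Prkag2* (0.788, at 5.43 against 4.98 to 5.08).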

How the results depend on the processing

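Against 407 higher and 318 lower DEGs, the values per gene gave 192 and 154 from fewer probe sets, no fold change threshold gave 1452 and 874, and a fold change of 2 gave 103 and 109. With each mouse left out in turn the higher DEGs ranged from 278 to 484 and the lower from 183 to 416. In the WT comparison, with 1538 and 1187 DEGs, the same 3 settings gave 488 and 507, 4627 and 4226, and 430 and 398, and leaving out a mouse gave 1363 to 1714 and 1082 to 1332. The other settings kept both counts within 1.5 times. The slope difference of 0.017 stayed positive, at 0.0099 to 0.0244 with a mouse left out, and was past 0.05 only with no minimum of expression (0.0138, exact permutation p = 0.0476). The spike-in difference was 0.041 to 0.061 with a mouse left out, and 7 of these 9 had an exact permutation p above 0.05. Of 78 named DEG probe sets, 47 were called whichever mouse was left out and 41 under every setting tried other than a fold change of 2, and 0 changed direction. Most losses came without mouse 535 (23), mouse 537 (22) or mouse 362 (20). In the model of 2 groups 12 lost the call. These were *Hspa1b* on 2 probe sets, *Ccng1*, *Ddit4*, *Saa3*, *Apcs*, *Nop58*, *Ulk2*, *Steap4*, *Prom1*, *Mthfd1l* and *Necab1*. The cause was not tested. No paired analysis was possible because the labels give no replicate number that the groups share. The number of mice limits the precision, and *Tchh*, *Sult3a1* and *Cux2* lay near the lowest values of the array in Rapa 14 ppm or DR 30%.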
